A study of Mus musculus with 10 samples.

Results

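Tubulins, the gamma-tubulin nucleation machinery, the augmin complex and proteins that bind or organise the spindle were examined in the lists of gene starts enriched for ARID2 in synchronized mouse testes. Members were the mouse protein-coding genes with an alpha-, beta-, gamma-, delta- or epsilon-tubulin symbol (gamma-tubulin complex proteins included) or a Haus symbol, to which 15 further spindle and cytokinesis genes were added by name. This gave 48 of 21774 protein-coding genes, 20 on the plus strand and 28 on the minus strand.

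ARID2 is a DNA-binding subunit specific to PBAF, a form of the SWI/SNF chromatin remodeler. BRG1, the ATPase, is a subunit of SWI/SNF in general and not of PBAF alone. ARID2 occupancy was mapped by CUT&RUN, in which an antibody directs a nuclease to cut out the chromatin bound by its target. Spermatogenesis was synchronized in wild-type mice of the CD1 strain by gavage with WIN 18,446, an inhibitor of retinoic acid synthesis, from P1 to P10 and an injection of retinoic acid (RA) at P11. Spermatogenic cells were then isolated at P28 and at P28.5, ages chosen to enrich late prophase I and metaphase I spermatocytes. At each age there were 2 ARID2 libraries, 2 libraries with antibodies to BRG1 and 1 control library prepared without antibody (no IgG), all from animals given the same WIN 18,446 and RA. Neither population was pure: metaphase spermatocytes remained a minority, and tubules at P28.5 also held more round spermatids than at P28.

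The values analysed were the genomic positions of the gene starts that the authors placed in their ARID2-enriched cluster at each age. A gene was called listed by name when a position carried its symbol, and listed by position when any position, whatever its name, lay within 2000 bp of its annotated start. Each list was made from averaged replicates and holds neither signal nor strand, so a listing has no replicate error and no test was made. The P28 list held 7144 distinct positions in 11553 entries and the P28.5 list 5193 in 8514, since a start shared by several transcripts can be entered several times.

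Microtubules are polymers of alpha- and beta-tubulin heterodimers, and gamma-tubulin in a ring-shaped complex templates new ones at centrosomes and within the spindle. Augmin recruits that ring complex to the sides of existing microtubules, which branches them and thickens the spindle. Crosslinkers, pole-focusing proteins and cytokinesis factors then shape the bipolar spindle on which homologous chromosomes separate at the end of meiosis I, and male germ cells also build the manchette and the flagellum from tubulin.

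At P28, 13 of the 48 members (27.1%) were listed by name, against 16.8% of all protein-coding genes. At P28.5, 11 members (22.9%) were, against a background of 11.6%. The listed genes came from most parts of the machinery. Tuba3b, Tubd1, Tubgcp3, Mzt1, Haus8, Prc1, Tacc3 and Anln appeared in both lists. These are 8 of 48 members, against 8.48% of all genes. Tuba1b, Tubb5, Tube1, Tubg1 and Tubgcp6 were listed at P28 alone, 5 members against 8.33%. Tubgcp2, Nusap1 and Spag5 were listed at P28.5 alone, 3 members against 3.13%. The 8 shared members made up 61.5% of those listed at P28 and 72.7% of those listed at P28.5. Over all protein-coding genes, the 1847 shared ones made up 50.5% of those named at P28 and 73.1% of those named at P28.5. The remaining 32 members were named at neither age.

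Listing by position added 4 genes whose nearest listed start carried a neighbour's name. By this measure 16 members (33.3%) were listed at P28, against 15.9% of all genes, and 15 (31.2%) at P28.5, against 14%. These shares were lower in the 32 members with no other coding gene starting within 1000 bp, at 21.9% and 15.6% by position, against 11.5% and 9.1% of all such genes. By name their share at P28.5 was 12.5%, against 9.23%. Hmmr, Ect2 and Cdca2 had such a position at both ages and Numa1 at P28.5. With both measures together 20 members had a listing at either age and 28 had none.

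**Figure D1:**
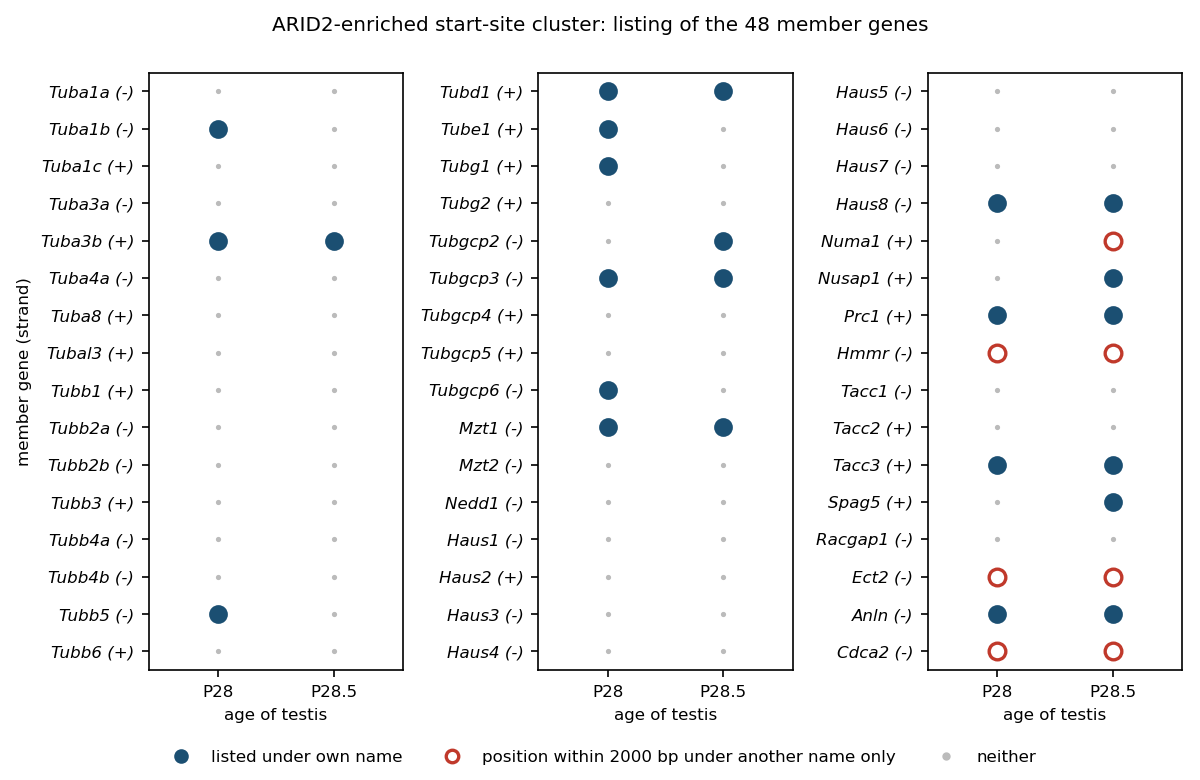
Listing of each of the 48 members (rows, with the strand in brackets) at P28 and P28.5 (columns). Filled circles mark a listing under the gene's own name (13 members at P28, 11 at P28.5), open circles a listed position within 2000 bp that carries only another gene's name (3 and 4), and small dots neither.

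The lists treat the strands unequally, and this bears on every count of members. Of the distinct positions 55.3% at P28 and 52.8% at P28.5 equal the lower-coordinate end of a RefSeq transcript, where plus-strand transcripts begin but minus-strand ones finish. At P28 these ends were 3219 plus-strand starts and 733 minus-strand far ends, and at P28.5 they were 2669 and 72, so the far ends were largely a feature of the P28 list. No annotated transcript end of these kinds was met by 3189 positions at P28 and 2449 at P28.5. Annotated starts of minus-strand transcripts were met by only 6 positions at P28 and 5 at P28.5. This concerns 28 of the 48 members and 7 of the 8 augmin genes. The absence of a minus-strand member from a list therefore says little about its promoter, and the presence of some rests on an end or start of another gene's transcript. Of all plus-strand genes, the P28 list named 26% and the P28.5 list 20.4%, whereas of minus-strand genes they named 7.61% and 2.86%. Among the 20 plus-strand members each list named 6. Of the 28 minus-strand members the P28 list named 7 and the P28.5 list 5. Plus-strand members were therefore nearer to their background than minus-strand members. By position, 6 plus-strand members were listed at P28 against a background of 22.6%, and 7 at P28.5 against 19.5%. For minus-strand members the counts were 10 against 9.16% and 8 against 8.38%.

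Promoter sequence is shown for 8 members, at most 2 of a group, whose starts were listed at both ages, or at 1 age within 100 bp of an annotated start. Mzt1, Tacc3 and Anln, also listed at both ages, were left out by these limits. No promoter sequence was matched for Tubg1, which is described with its positions further on. Each line gives the 100 bases before and 30 bases from the annotated RefSeq start on, in the GRCm38.p6 build, in the direction of transcription. Capitals mark the matches, on either strand, to the 8 short motifs described with the motif shares.
Tuba3b, chr6:145615863-145615992, plus strand: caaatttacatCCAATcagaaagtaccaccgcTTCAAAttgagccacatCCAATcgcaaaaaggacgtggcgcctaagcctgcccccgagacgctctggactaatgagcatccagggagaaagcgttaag
Tubd1, chr11:86544891-86545020, plus strand: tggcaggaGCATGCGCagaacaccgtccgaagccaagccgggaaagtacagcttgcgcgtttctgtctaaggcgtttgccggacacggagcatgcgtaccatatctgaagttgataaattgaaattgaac
Tube1, chr10:39133923-39134052, plus strand: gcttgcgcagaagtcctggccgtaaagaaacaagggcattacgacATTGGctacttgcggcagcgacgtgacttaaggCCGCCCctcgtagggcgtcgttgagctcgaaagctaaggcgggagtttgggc
Tubgcp3, chr8:12672071-12672200, minus strand: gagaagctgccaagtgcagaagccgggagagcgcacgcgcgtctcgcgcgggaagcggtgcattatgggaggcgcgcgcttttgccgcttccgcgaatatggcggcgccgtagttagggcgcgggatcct
Tubgcp6, chr15:89123121-89123250, minus strand: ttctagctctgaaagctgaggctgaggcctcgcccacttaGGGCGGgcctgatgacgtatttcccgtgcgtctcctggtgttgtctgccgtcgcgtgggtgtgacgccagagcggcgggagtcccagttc
Haus8, chr8:71272561-71272690, minus strand: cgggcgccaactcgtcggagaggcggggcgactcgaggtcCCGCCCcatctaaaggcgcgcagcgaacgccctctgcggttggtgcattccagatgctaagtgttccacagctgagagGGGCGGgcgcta
Nusap1, chr2:119618198-119618327, plus strand: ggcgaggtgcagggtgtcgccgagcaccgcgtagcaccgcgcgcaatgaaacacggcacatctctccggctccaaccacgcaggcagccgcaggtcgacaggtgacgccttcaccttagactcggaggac
Prc1, chr7:80294351-80294480, plus strand: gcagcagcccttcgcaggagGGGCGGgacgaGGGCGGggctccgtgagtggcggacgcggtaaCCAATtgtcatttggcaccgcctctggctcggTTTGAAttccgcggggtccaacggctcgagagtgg

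Listed positions fell on or close to these starts for the plus-strand genes. The position of Tuba3b at both ages and that of Nusap1 at P28.5 were the annotated start itself. Tubd1 was listed at the start shown at both ages and 153 bp downstream of it at P28.5. For Tube1 the P28 list gave the start shown, a position 45 bp before it and a position 12 bp after it. Prc1 was listed at the start shown and at 6 and 140 bp downstream of it. On the minus strand the listed position of Haus8 lay 29 bp before the start shown, those of Tubgcp6 153, 155 and 157 bp before it, and that of Tubgcp3 291 bp before it. The distances given from here on are from the outermost annotated start of the gene, which for some genes is not the start shown.

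Alpha- and beta-tubulins are the subunits of the polymer itself. The P28 list named 2 of 8 alpha-tubulin genes and 1 of 8 beta-tubulin genes, and the P28.5 list 1 and 0. Together these are 18.8% of the 16 genes at P28, close to the 16.8% of all genes, and 6.25% at P28.5, against 11.6%. Tuba3b, an alpha-tubulin isotype of the testis, was listed at both ages at chr6:145615963, its annotated start, in the non-coding part of the first exon. Tuba1b, a broadly expressed alpha-tubulin of dividing cells, was listed at P28 at chr15:98934647 in 2 entries, which is 257 bp upstream of its start and outside its transcript. In the GENCODE annotation that position is the lower end of Gm41396, a gene on the opposite strand. Tubb5, the major beta-tubulin of many proliferating cells, was listed at P28 at chr17:35838997 in 1 entry, which is 696 bp upstream of its start. No name or position was listed at either age for Tuba1a, Tuba1c, Tuba3a, Tuba4a, Tuba8, Tubal3, Tubb1, Tubb2a, Tubb2b, Tubb3, Tubb4a, Tubb4b or Tubb6. Among them are Tubb3, the neuronal isotype, and Tubb4b, an isotype of axonemes. The nearest listed position outside the 2000 bp window of any member lay 3189 bp from Tubb5 at P28.5 and carried the name of Mdc1.

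Both members of the delta and epsilon families, which are needed for the triplet microtubules of centrioles, were listed at P28. Tubd1, the delta-tubulin, appeared at chr11:86544991 in 4 entries at each age, and at chr11:86545144 in 1 further entry at P28.5. The first position lies in the first exon of 4 of its 5 annotated transcripts and the other is the start of the remaining transcript. Tube1, the epsilon-tubulin, was listed at P28 alone, at 29, 74 and 86 bp downstream of its outermost start, in 1 entry each. The nearest listed position at P28.5 was 598120 bp away.

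Of the gamma-tubulin pair, Tubg1 was listed and Tubg2 was not. Tubg1 encodes the gamma-tubulin that proliferating cells depend on, and it was listed at P28 at chr11:101120068 and chr11:101120131, in 1 entry each. These lie 164 and 227 bp downstream of its outermost start, and 49 and 14 bp from the nearest of its 2 annotated starts. Both positions are in the non-coding part of an exon, the first in 1 of 2 transcripts and the other in both. At P28.5 the nearest listed position was 196347 bp from Tubg1. Tubg2, the paralog close by on the same chromosome, had its nearest listed position 35743 bp away at P28, and that position carried the name of Tubg1.

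The gamma-tubulin ring complex and its adaptors had 3 of 8 genes (37.5%) listed by name at each age, against 16.8% of all genes at P28 and 11.6% at P28.5. Tubgcp3, a core subunit that binds gamma-tubulin, was listed at both ages at chr8:12672391 in 3 entries, 463 bp inside its outermost start. Mzt1, a small protein that binds the subunits' N-terminal ends and helps to anchor the complex, was listed at both ages at chr14:99046247 in 2 entries, 206 bp inside its start and in the coding part of an exon of 1 of 2 transcripts. The start of the neighbour Bora, at chr14:99046377, was listed as well at both ages and lies 76 bp inside the outermost Mzt1 start. Tubgcp6, a subunit specific to the ring, was listed at P28 at 3 positions 95, 97 and 99 bp upstream of its start, in 7 entries. All 3 are the lower ends of transcripts of Hdac10, the gene that ends just upstream of Tubgcp6 on the same strand. Tubgcp2, the other core subunit, was listed at P28.5 at chr7:140036820 in 1 entry, which is 146 bp upstream of its start and is also an annotated start of Zfp511 on the opposite strand. Positions 160 and 283 bp inside the outermost Tubgcp2 start were listed as well at P28.5, under the name of Zfp511. The names of Tubgcp4, Tubgcp5, Mzt2 and Nedd1, which encode further ring subunits and the adaptor that brings the complex to augmin and the centrosome, were in neither list. Nedd1 had no listed position nearer than 833832 bp at P28 and 730978 bp at P28.5.

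Augmin was represented by 1 of its 8 subunit genes at each age. Haus8, the subunit that binds the microtubule lattice, was listed at both ages at chr8:71272619, 8 bp inside its start, in 21 entries. At P28 the start of its divergent neighbour Myo9b, 87 bp upstream, was listed too. Haus1, Haus2, Haus3, Haus4, Haus5, Haus6 and Haus7 had neither a name nor a position in either list. Their nearest listed positions at P28 ranged from 20665 bp for Haus1 to 49751391 bp for Haus7, which is on the X chromosome. A single gene makes the augmin share 12.5% at each age, against 16.8% and 11.6% of all genes and 7.61% and 2.86% of minus-strand genes, to which 7 of the 8 belong.

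Proteins that bind and organise spindle microtubules had 2 of 8 genes (25%) listed by name at P28 and 4 (50%) at P28.5. All genes gave 16.8% and 11.6%, and plus-strand genes, to which 6 of these 8 belong, 26% and 20.4%. Prc1, which crosslinks antiparallel microtubules at the midzone, was listed at both ages at the same 3 positions, 6, 12 and 146 bp inside its outermost start, in 7 entries at each age. The position at 146 bp lies in coding sequence of 9 of its 11 annotated transcripts and is also the lower end of a transcript of Rccd1, on the opposite strand. Tacc3, which with clathrin and Ckap5 stabilises kinetochore fibres, was listed at both ages at the same 3 positions, from its start at chr5:33658128 to 232 bp downstream, in 7 entries at each age. Nusap1, which bundles microtubules near chromosomes, was listed at P28.5 at its start, chr2:119618298, in 2 entries. At P28 the nearest listed position was 24002 bp from it. Spag5, a spindle protein also called astrin, was listed at P28.5 at 90 and 121 bp downstream of its outermost start, in 6 entries, with the nearest position at P28 39546 bp away. Hmmr, a spindle assembly factor that binds hyaluronan, was not named, but the start of its divergent neighbour Nudcd2, 197 bp upstream, was listed in 2 entries at both ages. Numa1, which gathers microtubule minus ends at the poles, was likewise unnamed, and P28.5 positions 25 and 29 bp inside its outermost start carried the name of Lrrc51. Those Numa1 positions are within 3 bp of annotated Numa1 starts. Tacc1 and Tacc2 were listed in neither way.

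Of the 3 cytokinesis genes and the PP1-targeting gene, all on the minus strand, 1 was named at each age, where minus-strand genes gave 7.61% and 2.86%. By position 3 of these 4 were listed at each age, against 9.16% and 8.38%. Anln, or anillin, the scaffold of the contractile ring, was listed at both ages at chr9:22389080 and chr9:22389081, which are 131 and 130 bp inside its start, in 1 entry each. The position at 130 bp is a start of 9530077C05Rik on the opposite strand. Ect2, the exchange factor that activates RhoA at the cleavage furrow, had a listed position 227 bp inside its start at both ages under the name of 1700125G22Rik, a gene on the opposite strand. Cdca2, which brings PP1 to chromatin at anaphase, had 3 positions 243, 257 and 358 bp upstream of its start at both ages, all under the name of Kctd9. Racgap1, the centralspindlin subunit that works with Ect2, had no listed position nearer than 19062 bp at P28 or 73962 bp at P28.5.

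**Figure D2:**
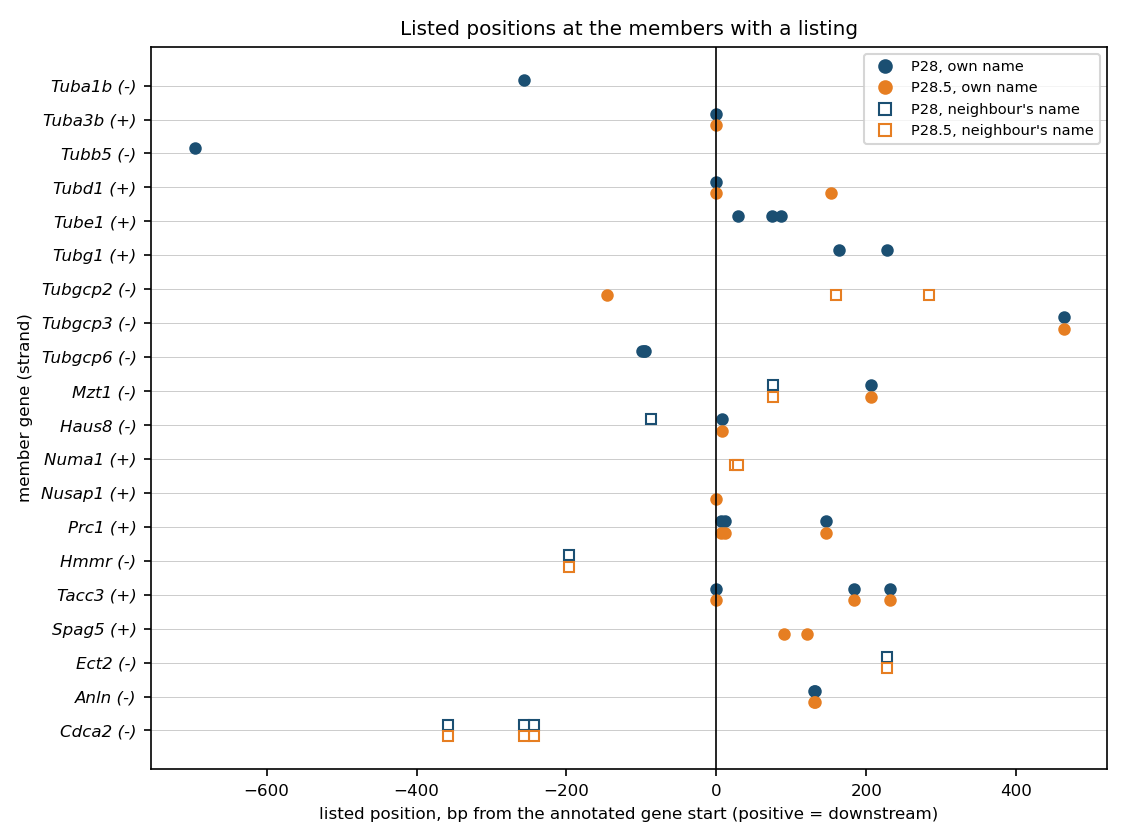
Listed positions (x axis, bp from the outermost annotated start in the direction of transcription) at the 20 members with a listing (y axis), at P28 (blue) and P28.5 (orange). Filled circles carry the member's own name and open squares another gene's; positions of plus-strand members run from 0 to 232 bp downstream under their own names, and those of minus-strand members from 696 bp upstream to 463 bp downstream.

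Position within the gene differed by strand. The 8 plus-strand genes named at either age had 17 distinct positions under their own names, with a median of 86 bp downstream of the outermost start. Of these, 8 equalled an annotated start of the gene and 14 lay within 100 bp of one. The 8 minus-strand genes had 11 positions, of which 0 equalled an annotated start and 4 lay within 100 bp of one. Across both strands there were 23 own-name positions at P28 and 18 at P28.5, and 13 of them were the same. So members listed at both ages were listed mainly at the same bases, with the added P28.5 position of Tubd1 as the exception. The authors describe both lists as drawn from RefSeq starts, though many positions met no annotated transcript end here. Positions taken from the same set would recur at the same bases, so this sharing says little about ARID2.

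Shared start regions were frequent. Another protein-coding gene started within 1000 bp of 16 of the 48 members, against 11.3% of all genes. Among the 16 members named at either age 9 had such a neighbour, and among the 32 named at neither age 7 had one. The named members with a neighbour were Tubd1 with Rps6kb1 at 106 bp, Tube1 with Fam229b at 35 bp, Tubg1 with Retreg3 at 63 bp, Tubgcp2 with Zfp511 at 284 bp, Mzt1 with Bora at 76 bp, Haus8 with Myo9b at 51 bp, Nusap1 with Oip5 at 207 bp, Tacc3 with Tmem129 at 151 bp and Anln with 9530077C05Rik at 652 bp. In each of these pairs the neighbour runs the opposite way, and the lists do not show how ARID2 signal is divided between the paired starts. Of the 7 unnamed members with a neighbour, Hmmr, Numa1 and Cdca2 had listed positions, whereas Tubgcp4, Haus1, Haus2 and Haus3 had none.

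Members with a shared start were also compared with all genes of that kind, and the difference was not tested. Of these 16, 9 had a listed position at P28 and 10 at P28.5, against 50.3% and 52.2% of the 2455 genes with a neighbour this close. By name 7 of the 16 were listed at each age, against 32% and 30.3%. Among the 32 members without one, 7 had a listed position at P28 and 5 at P28.5, against 11.5% and 9.1% of 19319 genes. By name, the P28 list held 6 of these 32 and the P28.5 list 4, against 14.9% and 9.23%. The comparison by neighbour was chosen after the data had been seen.

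CpG content at the start was higher in listed than in unlisted members. Counted over the 500 bp flanking each side of the start, observed CpG divided by expected CpG had a median of 0.77 in the 16 members named at either age, with a range of 0.4 to 0.965. In the 32 others the median was 0.635, with a range of 0.126 to 0.911, so the groups overlapped. All protein-coding genes had a median of 0.516, and those listed at P28 and P28.5 had medians of 0.719 and 0.779. Mzt1, at 0.965, and Tuba1b, at 0.921, had the highest ratios of the members, and Tuba3b, at 0.464, and Tubgcp3, at 0.4, were the listed members with the lowest. Alpha- and beta-tubulins had a median of 0.553 and the other members 0.751. Racgap1 and Tubb4b were not listed in either way with ratios of 0.911 and 0.838.

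With all genes divided into 5 equal classes by this ratio, the class with most CpG held 9 members, the next 21, and the lower 3 held 14, 3 and 1. In the top class 4 of 9 members were named at P28 and 3 at P28.5, against 28.8% and 27% of all genes of that class. In the next class 7 and 6 of 21 members were, against 24.9% and 19.1%. In the middle class 2 of 14 members were at each age, against 14.2% and 6.89%.

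**Figure D3:**
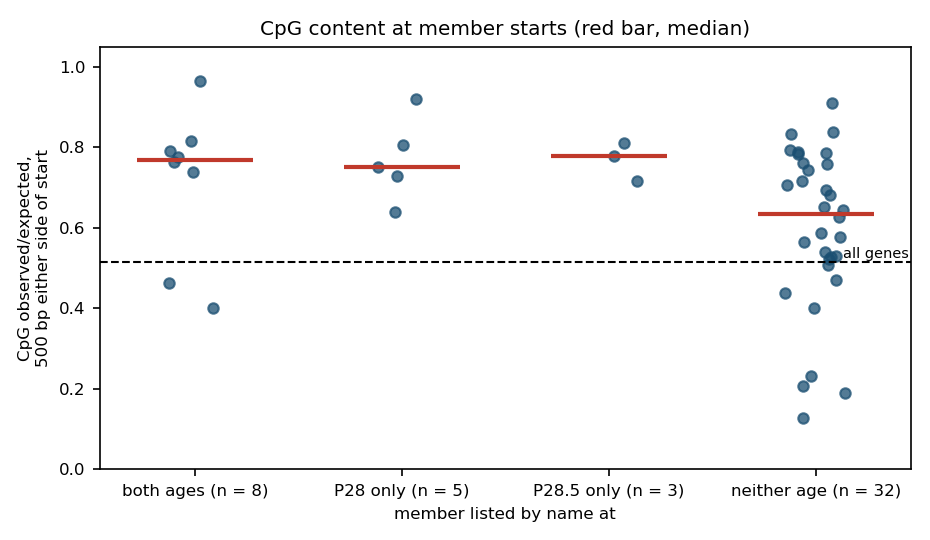
Observed CpG divided by expected CpG over the 500 bp flanking each side of the start (y axis) for each member (points), by the age at which it was named (x axis). Red bars are medians (0.77 for both ages, 0.751 for P28 alone, 0.78 for P28.5 alone and 0.635 for neither) and the dashed line is the median of all protein-coding genes, 0.516.

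Motifs were searched on both strands from 250 bases before to 50 bases from the start on. Promoter sequence was matched for 39 members, 14 of them named at either age, and for 17492 protein-coding genes. A gene was counted when any of its promoter sequences held the motif. The GC box (GGGCGG) was found in 25 of 39 members (64.1%), against 49.2% of all these genes, and the CCAAT box (CCAAT) in 20 (51.3%), against 42.3%. The cell cycle homology region (TTTGAA) was in 9 (23.1%), against 18.5%. The NRF1 half-palindrome (GCATGCGC) was in 7 (17.9%), against 3.94%, and 4 of those 7 were named members, Tuba3b, Tubd1, Prc1 and Anln. Less frequent were the E2F core (TTCCCGCC) in 3 (7.69%, against 3.28%), the cAMP response element (TGACGTCA) in 2 (5.13%, against 2.54%), the MYB core (AACNGCC) in 4 (10.3%, against 14%) and the ETS core (CCGGAAG) in 3 (7.69%, against 12.9%). Matches of the GC box can overlap each other and those of the E2F core. Of named and unnamed members the CCAAT box was in 6 of 14 and 14 of 25, and the GC box in 10 of 14 and 15 of 25. Among the sequences shown, Prc1 holds 2 GC boxes, a CCAAT box and the cell cycle homology region, which ends on the start itself. Tuba3b holds 2 CCAAT boxes and 1 cell cycle homology region, and in those of Tubgcp3 and Nusap1 none of the 8 motifs was found.

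Other genes of the same pathways were counted from lists written from gene function. Of 94 such genes 38 (40.4%) were named at P28 and 33 (35.1%) at P28.5, 26 of them at both ages, against 16.8% and 11.6% of all genes. The 54 on the plus strand gave most of these names, 33 (61.1%) at P28 and 30 (55.6%) at P28.5, against 26% and 20.4% of all plus-strand genes. Of the 40 on the minus strand 5 and 3 were named, or 12.5% and 7.5%, against 7.61% and 2.86%. Of 8 tubulin folding cofactors, which assemble the heterodimer, 0 were named at P28 and 1 at P28.5, Tbcc. By position the counts were 2 of 8 at P28 and 3 of 8 at P28.5, against 15.9% and 14% of all genes. Of 27 enzymes that add or remove tubulin modifications, 12 (44.4%) were named at P28 and 6 (22.2%) at P28.5. Of the 27, 16 are on the plus strand, as are all those named, and plus-strand genes gave 26% and 20.4%. A listed position lay near the start of 10 (37%) and 5 (18.5%) of these enzymes, against 15.9% and 14% of all genes. The 6 named at both ages were the glutamate ligases Ttll4, Ttll5 and Ttll9, the ligase-complex subunit Tpgs1 and the carboxypeptidases Agbl3 and Agbl5. The Ttll9 position equals an annotated internal start of that gene, and no listed position was nearer than 10049 bp to its outermost start.

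Genes that recruit gamma-tubulin to centrosomes were named in 4 of 14 cases (28.6%) at P28 and 2 (14.3%) at P28.5, against 16.8% and 11.6% of all genes, and 5 of the 14 are on the plus strand. Cep192, a scaffold of the pericentriolar material, and Odf2, a centriolar appendage and sperm tail protein, were named at both ages, and Pde4dip and the centriole-duplication kinase Plk4 at P28 alone. The position named for Pde4dip, a minus-strand gene, is 37533 bp from any annotated start of it. In the Ran and Aurora A branch of spindle assembly, which nucleates microtubules near chromosomes, 7 of 15 (46.7%) were named at P28 and 9 (60%) at P28.5. All genes gave 16.8% and 11.6%, and plus-strand genes, to which 8 of the 15 belong, 26% and 20.4%. Aurka, its activator Bora, the polymerase Ckap5, the motors Kif15 and Kifc5b and the nucleoporin Nup98 are the first in alphabetical order of the 7 named at both ages. Among the centralspindlin, midzone and contractile ring genes, 8 of 17 (47.1%) were named at each age. Of these 17, 13 are on the plus strand, where all genes gave 26% and 20.4%. Those named at both were Cep55, the midzone motor Kif20a, the non-muscle myosin Myh10, the GTPase Rhoa, Septin2 and Septin7. Spindle pole and minus-end genes were named in 5 of 10 cases at each age, the pole protein Wdr62 among them at both, and 6 of the 10 are on the plus strand. Of 3 PP1 catalytic subunits, all on the plus strand, Ppp1cb and Ppp1cc were named at both ages, Ppp1cc 4 bp from an internal start, with no listed position nearer than 3287 bp to its outermost start.

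**Figure D4:**
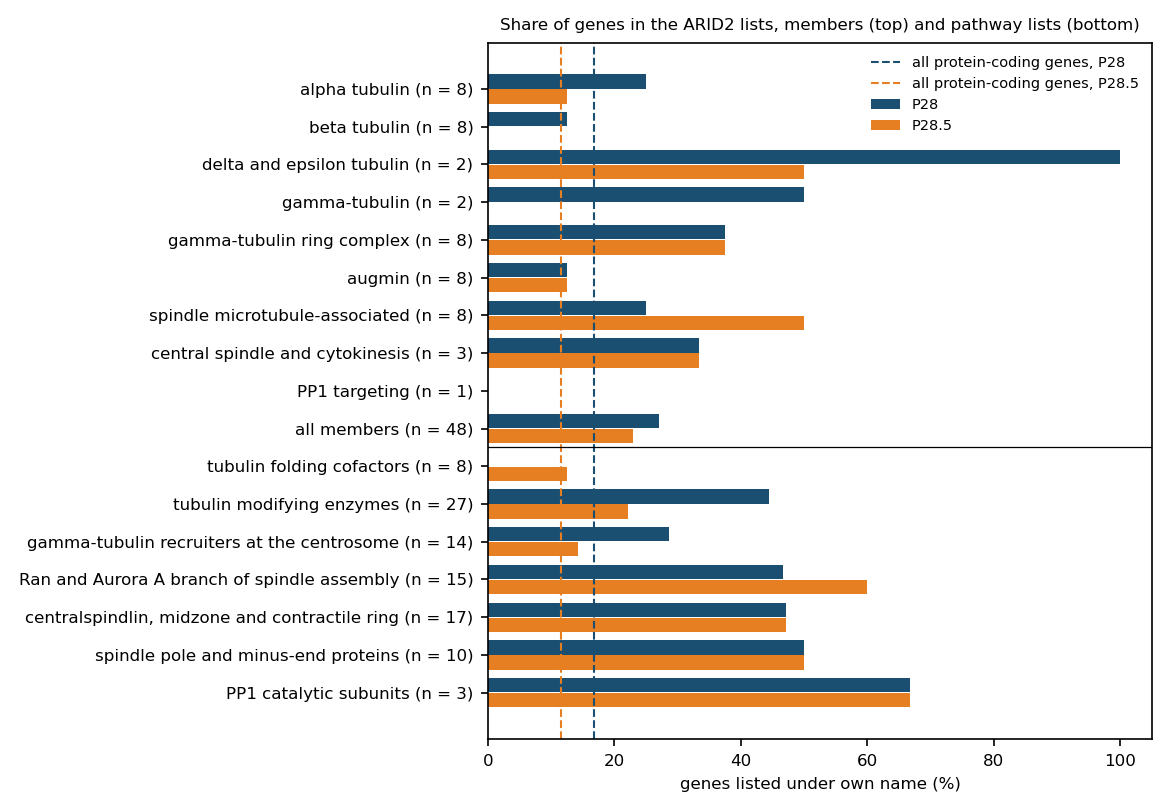
Share of genes named in the ARID2 lists (x axis, percent) at P28 (blue) and P28.5 (orange) for the member groups (above the line) and the pathway lists (below), with the number of genes in brackets. Dashed lines are the shares of all protein-coding genes, 16.8% and 11.6%; the groups hold between 1 and 27 genes apart from all 48 members together, so 1 gene moves a bar by up to 100%.

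Cell type markers were looked up in the same lists, where a listing is a place of ARID2 enrichment and not a level of expression. Of 10 spermatocyte markers 2 were named at P28, Sycp2 and Sycp3, and 3 at P28.5, Sycp3, Hormad1 and Spo11, against 16.8% and 11.6% of all genes. Of 7 round spermatid markers Tnp1 and Spaca1 were named at P28 and none at P28.5. The P28 positions named for Sycp2 and Spaca1, both on the minus strand, are 49832 and 25193 bp from any annotated start of the gene. By position 1 spermatocyte marker was listed at P28 and 2 at P28.5, and 1 round spermatid marker at P28, against 15.9% and 14% of all genes. None of the 6 spermatogonium, 6 Sertoli cell, 5 Leydig cell or 5 peritubular myoid and macrophage markers was named at either age. Their part in the members' listings was not tested.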

How the data were processed

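CUT&RUN libraries for ARID2 and BRG1 and controls were made at P28 and P28.5. The submitters' processing notes name Bowtie2, SAMtools and deepTools and the mm10 build. The authors averaged the 2 ARID2 libraries of each age relative to the control, clustered RefSeq starts by k-means, and deposited the positions and gene names of the enriched cluster. These positions are not measurements of signal, and the libraries' depth was not used here.

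Positions were compared as deposited with RefSeq and GENCODE annotations of GRCm38. Of 4095 names at P28, 3985 matched a gene symbol as written and 100 through a synonym that belongs to 1 gene, and of 2707 at P28.5, 2640 and 62 did. Windows were 2000 bp for listing, 1000 bp for neighbours and 500 bp on either side for CpG. The distance search was tested on simulated data. Python 3.11.15, numpy 2.4.6, pandas 2.3.3 and matplotlib 3.10.9 were used.

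Every member was named. Of each pathway list, the genes named at either age are given when there were 6 or fewer, and otherwise those named at both ages in alphabetical order up to 6, apart from items not reported here. Sequences are from RefSeq promoters, for up to 8 members and at most 2 of a group. Members and lists were chosen with earlier results of these data known. BRG1 libraries and signal tracks were not analysed here.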

Additional observations from a re-analysis of the deposited data

How the results depend on the processing

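Of 24 alternative settings, 21 left the value within 1.5 times the reported one, or a median CpG ratio within 1 SD of the members. They included symbols as written only, plus-strand or autosomal members only, windows of 500 or 5000 bp, and neighbours within 2000 bp. The 3 others kept only the 32 members with no other coding start within 1000 bp, a setting chosen after seeing the data. It gave 12.5% by name at P28.5, against 9.23% of all such genes. By position it gave 21.9% at P28 and 15.6% at P28.5, against 11.5% and 9.1%. Settings were compared by the members' share alone, although the share of all genes can move with the setting. Of the plus-strand members 30% were named at each age, against 26% of all plus-strand genes at P28 and 20.4% at P28.5. No paired analysis was possible because the lists used here were made from averaged replicates. Tracks of single libraries were not used here. The lists carry neither signal nor depth, and the libraries' depth was not used here. A missing entry therefore does not show that ARID2 was absent, and a start listed at 1 age is not shown to differ between ages.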
